A study of Mus musculus with 24 samples.

Results

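Messenger RNA of the prostaglandin pathway was followed in sorted stromal cells of the embryonic mouse kidney, over 8 genes chosen by name: Ptgs1, Ptgs2, Ptgis, Ptges3, Ptger4, Ptgfr, Slco2a1 and Hpgd. The genes were chosen with earlier results of these data known. Counts of called genes below therefore describe this list and do not test the pathway. Of these 8 genes, 7 had values among the 13803 genes of the deposited table, and Ptgs2 is not analysed here. All 7 passed the filter on low values, with at least 24 reads in every library. The 24 libraries form 8 groups of 3, each a genotype, strain and stage. The groups are β-catSD, deficient in beta-catenin, on C57BL/6 (titled K-O), C57BL/6 wild-type, β-catSO, with stabilised beta-catenin, on CD1 (titled Stab) and CD1 wild-type, each at embryonic days E12.5 and E13.5. Cells were sorted by fluorescence from kidneys described as FoxD1Cre-eGFP in all groups, in which the Foxd1 promoter, active in stromal progenitors, drives the recombinase and the fluorescent marker. Neither the alleles that alter beta-catenin nor the libraries that went through a second sort are named in the labels. Each genotype is described as coming from 3 kidneys. The labels do not say that libraries of a group came from separate animals, so every p below measures the spread between these libraries. Strain goes with the mutant line, so each mutant was set against wild-type of its own strain and stage.

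Prostaglandins are lipid signals made from arachidonic acid, which phospholipases release from membranes. Cyclooxygenases turn arachidonic acid into prostaglandin H, and terminal synthases turn that into prostaglandin E, prostacyclin and other forms, each read by its own G protein-coupled receptors. The signal ends when a transporter takes prostaglandin into a cell and a dehydrogenase oxidises it. In the kidney the pathway is known for its part in blood flow, in salt and water handling and, through cyclooxygenases, in development.

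The stretch of 250 bases before the start of 4 of the genes is shown, because these 4 include the pair that rose in β-catSD and a pair of receptors that moved in opposite directions in β-catSO. Sequences are from RefSeq on GRCm38.p6, given 5′ to 3′ on the strand of the gene, and 6 of the 7 measured genes had an entry. Capitals mark matches on either strand to 5 kinds of word. These were the core promoter word TATAAAA, the upstream promoter word CCAAT, the GC box GGGCGG bound by Sp factors, and the cyclic AMP response element TGACGTCA. The kind bound by TCF/LEF factors, the partners of beta-catenin on DNA, was searched as CTTTGAA and with its final letters changed, giving the word CTTTGAT, then as the word with other final letters CTTTGTA, and lastly as the word with final letters CTTTGTT.
Ptgs1, chr2:36230176-36230425, plus strand: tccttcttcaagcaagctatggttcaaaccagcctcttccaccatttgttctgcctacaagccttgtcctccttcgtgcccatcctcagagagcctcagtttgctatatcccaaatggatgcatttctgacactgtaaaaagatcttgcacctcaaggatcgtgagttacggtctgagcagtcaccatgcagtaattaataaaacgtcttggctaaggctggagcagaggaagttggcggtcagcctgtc
Slco2a1, chr9:103008237-103008486, plus strand: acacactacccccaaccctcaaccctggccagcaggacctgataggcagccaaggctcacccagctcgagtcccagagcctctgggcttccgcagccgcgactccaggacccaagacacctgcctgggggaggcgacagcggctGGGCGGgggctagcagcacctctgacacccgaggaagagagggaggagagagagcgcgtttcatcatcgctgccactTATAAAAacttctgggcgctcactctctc
Ptger4, chr15:5244188-5244437, minus strand: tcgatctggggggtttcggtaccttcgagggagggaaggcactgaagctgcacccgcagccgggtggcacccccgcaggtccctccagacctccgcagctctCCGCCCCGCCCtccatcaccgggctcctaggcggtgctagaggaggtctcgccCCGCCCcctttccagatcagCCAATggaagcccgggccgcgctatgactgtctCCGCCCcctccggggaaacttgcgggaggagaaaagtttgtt
Ptgfr, chr3:151837529-151837778, minus strand: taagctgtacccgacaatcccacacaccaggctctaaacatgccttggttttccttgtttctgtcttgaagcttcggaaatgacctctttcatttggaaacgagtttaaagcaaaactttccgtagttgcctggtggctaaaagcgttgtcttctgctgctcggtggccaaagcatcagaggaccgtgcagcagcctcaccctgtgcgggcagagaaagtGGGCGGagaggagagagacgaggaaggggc
The Ptgs1 window holds none of these words. The Slco2a1 window holds TATAAAA, which begins 29 bases before the start, and a GC box at 106 bases. It lies inside the gene as GENCODE M21 draws it, downstream of the start of a longer isoform. The Ptger4 window holds CCAAT at 75 bases and GC boxes at 148, 143, 95 and 42 bases, the farthest pair of which share a base. The Ptgfr window holds a GC box at 30 bases and reaches into the GENCODE gene, whose start lies farther upstream. None of the 6 windows held a TCF/LEF word. Over 32851 RefSeq promoters cut the same way, 14.8% held a TCF/LEF word, 4.98% TATAAAA, 1.55% TGACGTCA, 33.8% CCAAT and 32.7% the GC box. A match is only a match of letters in this window.

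Values below are log2 counts-per-million (CPM) as deposited. Differences are log2 fold changes from limma over all 24 libraries, with the standard error after ±, and adjusted p is limma's p after Benjamini-Hochberg adjustment over 13803 genes, called under 0.05. Library totals were 6184257 to 21168300 reads. Fits were repeated without each of the 24 libraries in turn. Where that library lay outside the groups compared, the fold change stayed the same and only the spread estimate and p could move. Axin2, a Wnt feedback gene read here as a check of the labels, had a log2 fold change of -1.02 in β-catSD and 3.60 in β-catSO over the mean of stages (adjusted p = 2.06e-06 and 6.63e-17). Ctnnb1, which encodes beta-catenin, had values of -0.24 and -0.10 (0.00193 and 0.143), and a value of the whole gene cannot show an altered exon. All 12 stroma markers were present, with summed levels of 9034 to 14335 CPM. With no unsorted or other cells to compare, these levels do not measure how pure the sort was. Foxd1 itself was lower in β-catSO by 1.02 ± 0.11 over the mean of stages (log2 change -1.02; adjusted p = 1.56e-07). A few wild-type libraries stood apart in RNA of other cells. Liver markers summed to 4499 CPM in C57BL/6 E12.5 replicate 3, against 15.6 and 18.4 CPM in its group, and to 970 CPM in CD1 E13.5 replicate 3. Endothelial markers summed to 1004 CPM in CD1 E13.5 replicate 1, against 54.4 and 98.6 CPM in its group. Erythroid markers summed to 1187 CPM in C57BL/6 E13.5 replicate 3, against 42.3 and 55.6 CPM in its group. Results are therefore also given with the first 3 of these libraries left out, which leaves 1 CD1 library at E13.5 that is taken to vary like the other groups.

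Per kilobase of annotated exon, the 12 wild-type libraries held 149 ± 14.9 CPM of Ptges3 (SD, the standard deviation, n = 12). This was the highest level among 49 eicosanoid genes measured. Ptgis stood at rank 3, at 20.0 ± 4.35 CPM per kilobase. Hpgd, Ptgs1 and Ptgfr followed at 5.65, 5.35 and 4.54 CPM per kilobase, and Ptger4 and Slco2a1 had 0.789 and 0.467. These levels depend on the annotated exon length, which is long for Slco2a1 (13545 bases). Reads per library ran from 1788 to 6499 for Ptges3, 157 to 766 for Ptgis, 94 to 450 for Ptgs1, 70 to 480 for Ptgfr, 34 to 234 for Hpgd, and 24 to 155 and 24 to 165 for Ptger4 and Slco2a1.

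**Figure D1:**
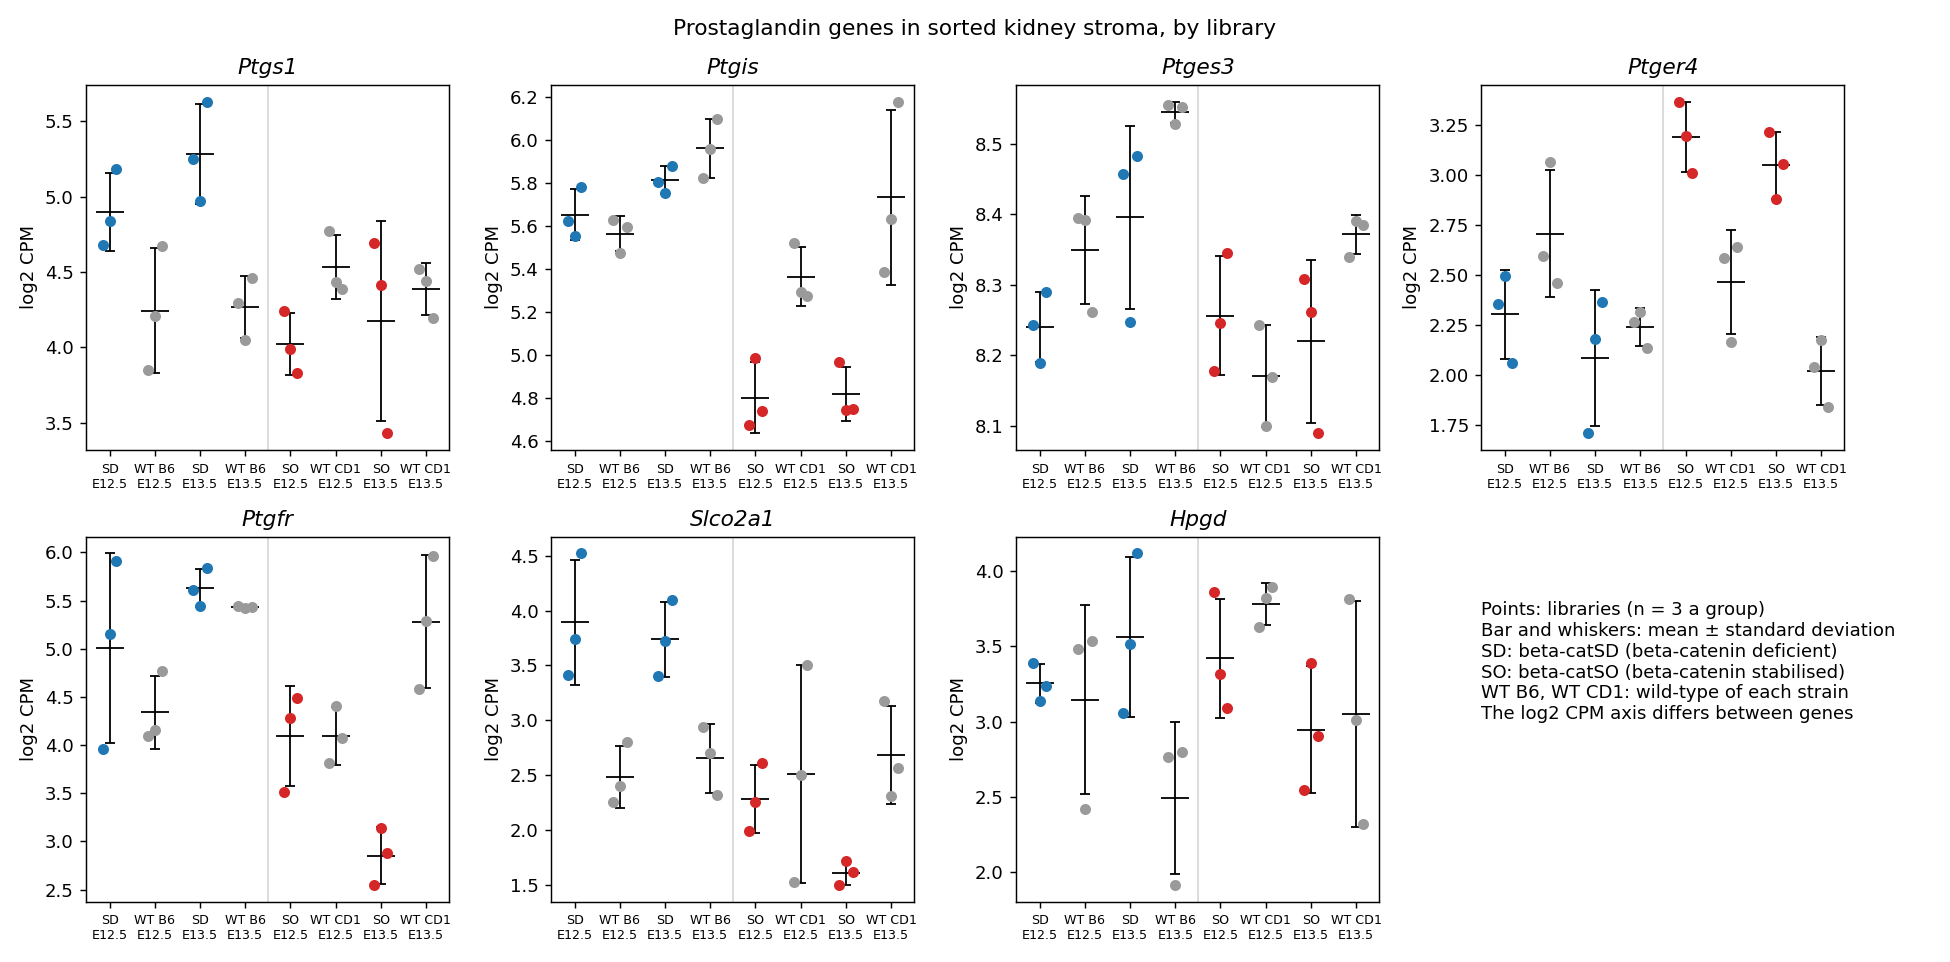
Level of each of the 7 genes in log2 CPM (vertical axis, different for each gene) in the 24 libraries, by group (horizontal axis), with the mean and standard deviation of 3 libraries. Ptgs1 and Slco2a1 are highest in the β-catSD groups, Ptgis lowest and Ptger4 highest in the β-catSO groups, and Ptgfr lowest in β-catSO at E13.5.

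In β-catSD stroma, Ptgs1 and Slco2a1 rose against C57BL/6 wild-type over the mean of both stages, by 1.78-fold and 2.38-fold, and no gene of the 7 fell. That is 2 of 7 genes called higher, where 3.46% of all genes were called higher and 7.17% in either direction. The median log2 fold change of the 7 genes was 0.43, and of all genes 0.00. At E13.5 alone 1 gene (Ptgs1) was called, against 3.4% of all genes. At E12.5 none of the 7 was called with limma (2 had an unadjusted p under 0.05), against 1.72% of all genes.

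Ptgs1 encodes cyclooxygenase-1, the constitutive enzyme that makes prostaglandin H (chromosome 2, 36230426 to 36252272). At E12.5 it had 4.68, 4.84 and 5.18 log2 CPM in β-catSD libraries, against 3.85, 4.21 and 4.67 in C57BL/6 wild-type. The lowest mutant library and the highest wild-type library nearly touched. At E13.5 it had 5.25, 4.97 and 5.63 log2 CPM in β-catSD, against 4.29, 4.05 and 4.46 in wild-type, and every mutant library lay above every wild-type library. The log2 fold change was 0.66 ± 0.25 at E12.5 (adjusted p = 0.222), 1.01 ± 0.25 at E13.5 (0.0242) and 0.84 ± 0.18 over the mean of stages (0.00437). The call over the mean of stages held in each of the 24 fits that left out a library, and with the 3 libraries left out the change was 0.94 (0.00240). Without C57BL/6 E13.5 replicate 3, the library high in erythroid markers, it was 0.88 (0.00656), and 1.11 at E13.5 (0.0450). The call at E13.5 ended without β-catSD replicate 1 or 3 (adjusted p = 0.0764 and 0.139) and without wild-type replicate 1 or 2 (0.0581 and 0.122). In bulk RNA of this kind, more cells that express a gene and more RNA per cell cannot be told apart.

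Slco2a1 encodes the prostaglandin transporter, which carries prostaglandins into cells (chromosome 9, 102988712 to 103096002). Its level was 3.41, 3.74 and 4.52 log2 CPM in β-catSD at E12.5, against 2.25, 2.40 and 2.80 in C57BL/6 wild-type. At E13.5 it was 3.40, 3.72 and 4.09 log2 CPM in β-catSD, against 2.94, 2.70 and 2.31 in wild-type. At both stages all 3 mutant libraries lay above all 3 wild-type libraries. The log2 fold change was 1.25 ± 0.26 over the mean of stages (adjusted p = 0.00395), called without any 1 of the 24 libraries. Without C57BL/6 E13.5 replicate 3 it was 1.16 (0.0147). By stage it was 1.41 ± 0.37 at E12.5 (0.0540) and 1.09 ± 0.37 at E13.5 (0.124). The E12.5 value passed the threshold without β-catSD replicate 1 (0.0285), the lowest mutant library, without CD1 wild-type E12.5 replicate 1 or 3 or E13.5 replicate 1 (0.0217, 0.0226 and 0.0377), and with the 3 libraries left out (1.57; 0.0468).

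Hpgd encodes 15-hydroxyprostaglandin dehydrogenase, the enzyme that starts prostaglandin inactivation (chromosome 8, 56294585 to 56321043). At E13.5 it had 3.06, 3.52 and 4.12 log2 CPM in β-catSD, against 2.77, 1.92 and 2.80 in C57BL/6 wild-type, with no overlap between the groups. The log2 fold change there was 1.07 ± 0.36 (adjusted p = 0.114), and 0.59 ± 0.25 over the mean of stages (0.184), so it was not called. At E12.5 it averaged 3.25 ± 0.13 log2 CPM in β-catSD and 3.14 ± 0.63 in wild-type (SD, n = 3 each), a change of 0.11 ± 0.36 (0.944).

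Ptgfr, Ptgis, Ptger4 and Ptges3 were not called in β-catSD. Ptgfr, the receptor for prostaglandin F, spread widely at E12.5, with 3.95, 5.15 and 5.91 log2 CPM in β-catSD libraries against 4.09, 4.16 and 4.77 in C57BL/6 wild-type. Its log2 fold change there was 0.67 ± 0.36 (adjusted p = 0.437), and 0.0477 without the lowest mutant library, replicate 1. Ptgis, which encodes prostacyclin synthase, had a log2 fold change of -0.03 over the mean of stages (95% interval -0.24 to 0.18; adjusted p = 0.916). For Ptger4, the prostaglandin E receptor EP4, the change was -0.28 (-0.62 to 0.06; 0.377). For Ptges3, cytosolic prostaglandin E synthase and also the Hsp90 co-chaperone p23, it was -0.13 (-0.23 to -0.03; 0.122).

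None of the 7 genes had a β-catSD effect that differed between stages by limma (0 called and 0 at an unadjusted p under 0.05, against 0% of all genes called). The largest difference was that of Hpgd, whose effect at E13.5 minus that at E12.5 was 0.96 ± 0.51 (95% interval -0.09 to 2.01).

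Markers of other cells moved with the β-catSD genotype. Over the mean of stages 11 of 14 macrophage, 10 of 14 endothelial, 4 of 8 erythroid and 4 of 6 mast and platelet markers were lower, and none was higher. Summed macrophage markers were 19.6 to 51.8 CPM in β-catSD at E13.5 and 203 to 330 CPM in C57BL/6 wild-type. At E12.5 they were 87.2 to 204 CPM in β-catSD and 117 to 743 CPM in wild-type, with none of the 14 called. The highest wild-type sum was that of replicate 3, the library high in liver markers, and the medians were 122 and 133 CPM. Nephron progenitor markers summed to 576 to 696 CPM in β-catSD at E12.5 and 448 to 492 CPM in wild-type, and to 631 to 744 CPM and 539 to 573 CPM at E13.5. Of these 12 markers only Meox1 was called. Of 26 immediate early genes, which respond to handling of cells, 3 were higher and 1 lower. Over the mean of stages 7.17% of all genes were called. The part of these cells in the changes of Ptgs1 and Slco2a1 was not tested.

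In β-catSO stroma the called genes were others: Ptgis and Ptgfr fell and Ptger4 rose against CD1 wild-type over the mean of both stages. Lower calls were made for 2 of 7 genes, against 8.32% of all genes, and higher calls for 1, against 10.2% (18.5% in either direction). The median log2 fold change of the 7 genes was -0.36, and of all genes 0.00. At E13.5 the same 3 genes were called, against 15.4% of all genes (6.83% lower and 8.53% higher), and at E12.5 1 (Ptgis), against 8.16%.

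Ptgis lies on chromosome 2 (167191805 to 167240604), and its enzyme makes prostacyclin, a vasodilator. At E12.5 it had 4.67, 4.99 and 4.74 log2 CPM in β-catSO, against 5.52, 5.29 and 5.28 in CD1 wild-type. At E13.5 it had 4.96, 4.74 and 4.75 log2 CPM in β-catSO, against 5.39, 5.63 and 6.18 in wild-type. All 6 mutant libraries lay below all 18 other libraries. Its log2 fold change was -0.56 ± 0.14 at E12.5 (adjusted p = 0.0132), -0.91 ± 0.14 at E13.5 (5.62e-05) and -0.74 ± 0.10 over the mean of stages (7.42e-06), which is 1.67-fold lower. The call at E12.5 ended without β-catSO replicate 1 or 3 (0.0646 and 0.0592) and without CD1 wild-type replicate 1 (0.0778). With the 3 libraries left out the mean change was -0.69 (1.97e-05).

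Ptgfr lies on chromosome 3 (151796502 to 151837630). At E12.5 its level did not separate the groups, with 3.51, 4.28 and 4.49 log2 CPM in β-catSO against 3.81, 4.40 and 4.07 in CD1 wild-type (log2 fold change 0.00, 95% interval -0.74 to 0.75; adjusted p = 0.998). At E13.5 it fell to 2.55, 3.14 and 2.88 log2 CPM in β-catSO, against 4.58, 5.29 and 5.97 in wild-type. The highest mutant library was well below the lowest wild-type library. The log2 fold change was -2.43 ± 0.36, 5.37-fold lower (3.34e-05), and was called without any 1 of the 24 libraries and with the 3 libraries left out (-2.43; 0.00123). Over the mean of stages it was -1.21 ± 0.25 (0.00128), a value that averages a stage with no difference and a stage with a large one. The effect at E13.5 minus that at E12.5 was -2.43 ± 0.51 (0.0195), the 1 call among the 7 genes, against 1.33% of all genes. That call ended without β-catSO E12.5 replicate 2 or 3, CD1 E12.5 replicate 1 or 3 or CD1 E13.5 replicate 3 (0.0524 to 0.0711).

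Ptger4 raises cyclic AMP when prostaglandin E binds (chromosome 15, 5206661 to 5244187). It had 3.36, 3.19 and 3.01 log2 CPM in β-catSO at E12.5, against 2.58, 2.16 and 2.64 in CD1 wild-type, and 3.21, 2.88 and 3.05 in β-catSO at E13.5, against 2.04, 2.17 and 1.84 in wild-type. Mutant libraries lay above wild-type at both stages. Its log2 fold change was 0.73 ± 0.23 at E12.5 (adjusted p = 0.0568), 1.03 ± 0.23 at E13.5 (0.00327) and 0.88 ± 0.16 over the mean of stages (0.000393), which is 1.84-fold. With the 3 libraries left out the call at E13.5 ended (0.87; 0.118), while that over the mean of stages held (0.80; 0.0101).

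The genes that rose in β-catSD did not pass the threshold in β-catSO. Slco2a1 had 1.49, 1.71 and 1.61 log2 CPM in β-catSO at E13.5, the lowest of all 8 groups, against 3.18, 2.31 and 2.57 in CD1 wild-type. Its log2 fold change was -1.08 ± 0.37 (adjusted p = 0.0531), which misses the threshold. It was called with voom weights (-1.21; 0.0481) and in 5 of the 24 fits that left out a library (without β-catSD E12.5 replicate 1 or 3, CD1 E12.5 replicate 1 or 3, or CD1 E13.5 replicate 2). With the 3 libraries left out it was -0.70 (0.479). At E12.5 it had 1.99, 2.26 and 2.61 log2 CPM in β-catSO, against 1.52, 2.50 and 3.51 in wild-type, which spanned the mutant values. Over the mean of stages the change was -0.65 ± 0.26 (0.0923), and 0.00991 without CD1 E12.5 replicate 1. Ptgs1 averaged 4.02 ± 0.20 log2 CPM in β-catSO and 4.53 ± 0.21 in wild-type at E12.5, and 4.18 ± 0.66 and 4.38 ± 0.17 at E13.5 (SD, n = 3 each), a mean change of -0.36 ± 0.18 (0.179). Hpgd had a mean change of -0.23 (95% interval -0.76 to 0.29, adjusted p = 0.597), and Ptges3 of -0.03 (-0.13 to 0.07, 0.710). That of Ptges3 averages 0.09 ± 0.07 at E12.5 (0.541) and -0.15 ± 0.07 at E13.5 (0.154), where the libraries did not overlap. The E13.5 effect on Ptges3 minus the E12.5 effect was -0.24 ± 0.10 (0.251), which was not called.

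**Figure D2:**
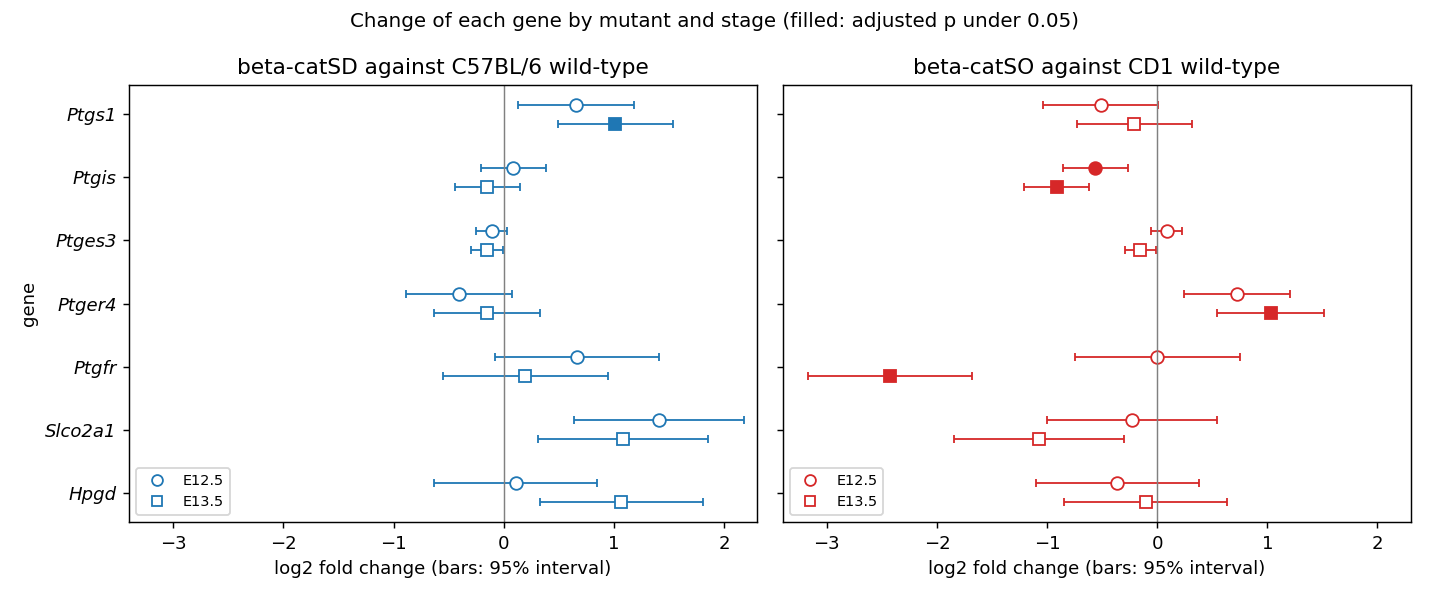
Log2 fold change of each gene (horizontal axis, with 95% intervals) in β-catSD against C57BL/6 wild-type (left) and β-catSO against CD1 wild-type (right), circles for E12.5 and squares for E13.5, filled where limma's adjusted p was under 0.05. In β-catSD only Ptgs1 at E13.5 is filled; in β-catSO Ptgis is filled at both stages and Ptger4 and Ptgfr at E13.5, where Ptgfr reaches -2.43.

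In β-catSO at E13.5 smooth muscle markers also differed. There 5 of 8 were higher, with sums of 532 to 811 CPM in β-catSO and 204 to 268 CPM in CD1 wild-type, while at E12.5 none was called (374 to 433 CPM and 369 to 429 CPM). Macrophage markers summed to 479 to 1218 CPM in β-catSO at E13.5 and 326 to 447 CPM in wild-type, with 2 of 14 called higher. At E12.5 they summed to 550 to 833 CPM and 806 to 836 CPM, with none called. Of 12 stroma markers 4 were higher and 7 lower at E13.5. Liver markers were 40.5 to 48.6 CPM in β-catSO at E12.5 and 259 to 298 CPM in wild-type. Erythroid markers summed to 59.9 to 990 CPM in β-catSO at E12.5 and 3251 to 3367 CPM in wild-type, and 3 of 8 were lower over the mean of stages. Nephron progenitor markers summed to 291 to 378 CPM in β-catSO at E13.5 and 522 to 878 CPM in wild-type, where Gdnf, Meox1 and Six2 were lower. Immediate early genes summed to 833 to 853 CPM in β-catSO at E12.5 and 694 to 764 CPM in wild-type, and to 923 to 1044 CPM in β-catSO at E13.5 and 610 to 762 CPM in wild-type. Of 26 such genes, 4 were higher and 2 lower over the mean of stages, which is 23.1% called. Among all genes 8.16% were called at E12.5, 15.4% at E13.5 and 18.5% over the mean of stages. The part of these cells and genes in the changes of Ptgfr, Ptgis and Ptger4 was not tested.

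**Figure D3:**
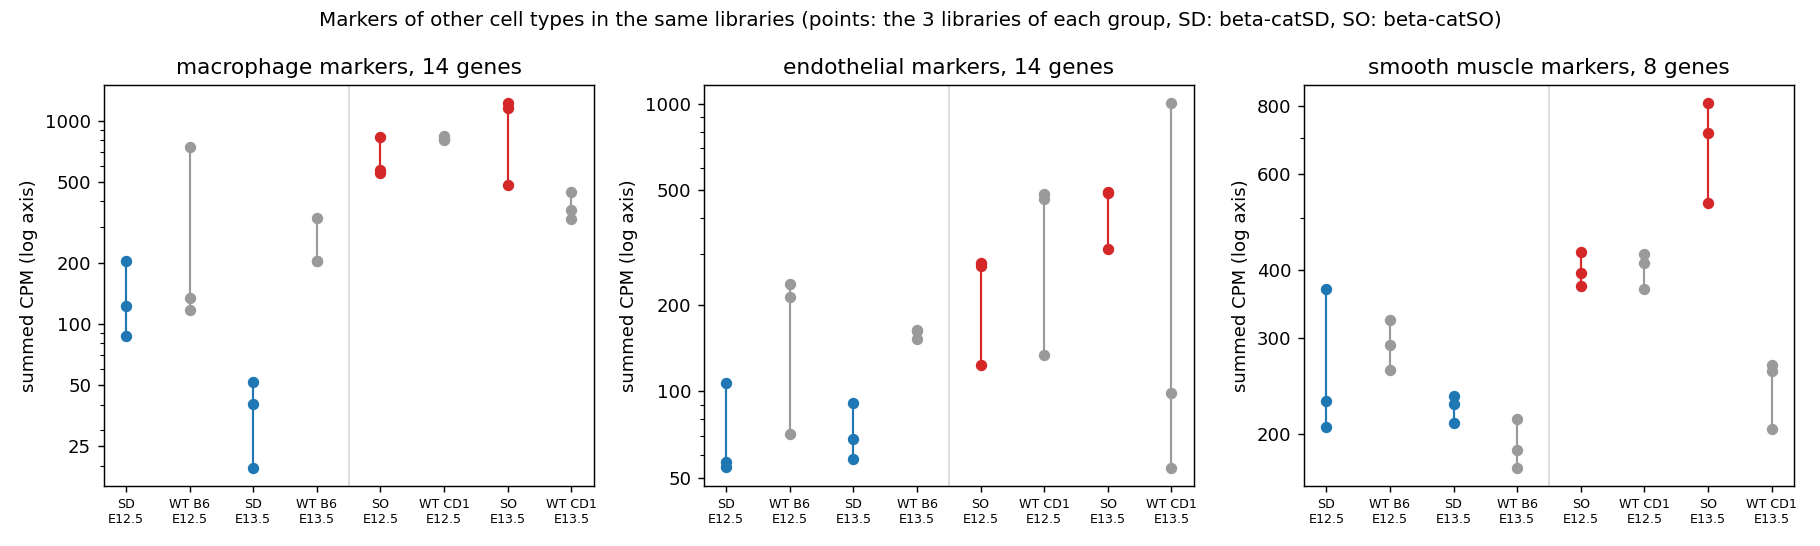
Summed CPM (log axis) of macrophage, endothelial and smooth muscle markers in the 3 libraries of each group. Macrophage sums at E13.5 are 19.6 to 51.8 CPM in β-catSD and 203 to 330 CPM in C57BL/6 wild-type, and smooth muscle sums at E13.5 are 532 to 811 CPM in β-catSO and 204 to 268 CPM in CD1 wild-type.

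The effects of the 2 mutants, each against its own wild-type libraries, differed for 5 of the 7 genes, where 17.9% of all genes were called in this comparison, 8.05% lower and 9.87% higher. The β-catSO effect minus the β-catSD effect was -1.90 ± 0.37 for Slco2a1 (adjusted p = 0.000772), -1.64 ± 0.36 for Ptgfr (0.00219), -1.20 ± 0.25 for Ptgs1 (0.00156), -0.71 ± 0.14 for Ptgis (0.000922) and 1.16 ± 0.23 for Ptger4 (0.000995). All 5 held in each of the 24 fits that left out a library and with the 3 libraries left out. For Hpgd it was -0.82 ± 0.36 (0.123) and for Ptges3 0.10 ± 0.07 (0.387). Line and strain go together in this comparison and cannot be told apart.

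Wild-type libraries were also compared by stage and by strain. From limma 0 of the 7 was called between E13.5 and E12.5 in C57BL/6 (3 at an unadjusted p under 0.05; 3.96% of all genes called) and 0 in CD1 (3; 5.42%). Ptgfr was higher at E13.5 in every wild-type library of its strain, by 1.09 ± 0.36 in C57BL/6 (adjusted p = 0.0870) and 1.18 ± 0.36 in CD1 (0.0564). It passed the threshold in C57BL/6 without β-catSD E12.5 replicate 1 or 3 (0.0319 and 0.0470) and in CD1 without these libraries or CD1 E13.5 replicate 1 (0.0163, 0.0270 and 0.0171). Ptgis was higher at E13.5 by 0.40 ± 0.14 in C57BL/6 (0.116) and 0.37 ± 0.14 in CD1 (0.132), and passed without CD1 E13.5 replicate 3 in C57BL/6 (0.0418) and without CD1 E13.5 replicate 1 in CD1 (0.0219). Between strains Ptges3 was the 1 gene called, against 4.46% of all genes, higher in C57BL/6 than in CD1 by 0.18 ± 0.05 (0.0432). The call lay close to the threshold: it ended in 12 of the 24 fits that left out a library (adjusted p up to 0.116), while the change stayed between 0.16 and 0.20 in all 24. The wild-type libraries are titled as controls of different lines (K-O-con and Stab-con), so strain and line cannot be told apart here either.

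Ordered by group mean, Ptgfr ran over 2.78 log2 units and Slco2a1 over 2.29, while Ptges3 ran over 0.37. The order of Ptgfr was β-catSD E13.5, C57BL/6 E13.5, CD1 E13.5, β-catSD E12.5, C57BL/6 E12.5, β-catSO E12.5, CD1 E12.5 and β-catSO E13.5, and only the first and last neighbours had libraries that did not overlap. For Slco2a1 the order was β-catSD E12.5, β-catSD E13.5, CD1 E13.5, C57BL/6 E13.5, CD1 E12.5, C57BL/6 E12.5, β-catSO E12.5 and β-catSO E13.5. Gaps free of overlap lay below the β-catSD groups and above β-catSO E13.5. Ptgis had 1 such gap, which set the β-catSO groups below the rest, and Ptges3 had 1, above which stood C57BL/6 E13.5 alone. For Ptgs1, Ptger4 and Hpgd all 7 neighbouring pairs overlapped. Ptges3 lay between 8.09 and 8.55 log2 CPM in all 24 libraries. Hpgd was highest in CD1 E12.5 (3.78 ± 0.14) and lowest in C57BL/6 E13.5 (2.49 ± 0.50).

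Across the 24 libraries, which share genotype and stage in threes, the level of Ptgis ran most like that of Hibadh (Pearson r = 0.964, n = 24), Mest (0.954) and Ntsr1 (0.946). That of Ptgfr ran most like Mbnl3 (r = 0.922), Rassf8 (0.906) and Spred2 (0.906). Bach2 (r = 0.892), Casz1 (0.884) and Robo1 (0.884) were closest to Ptger4, and Meox1 (0.879), Fzd5 (0.861) and Sulf2 (0.858) to Slco2a1. Tyms (r = 0.875), Cct6a (0.844) and Cnot9 (0.838) were closest to Ptges3. Fzd8 (r = 0.814), Gas7 (0.812) and Gab1 (0.798) were closest to Ptgs1, and Ppp1r3f (0.747), Fam13a (0.744) and Ighmbp2 (0.699) to Hpgd. These values describe the likeness over all groups and carry no test.

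Of 69 further genes of eicosanoid metabolism, 42 were measured. In β-catSD over the mean of stages 3 were higher and 4 lower, and in β-catSO 3 were higher and 5 lower. The shares of genes called were 16.7% and 19.0%, against 7.17% and 18.5% of all genes.

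Among the 11 measured genes of arachidonate release, 2 rose in β-catSO and none was called in β-catSD. The share called in β-catSO was 18.2%, near the 18.5% of all genes, and in β-catSD 7.17% of all genes were called. Pla2g4a encodes cytosolic phospholipase A2, which frees arachidonic acid. It had 6.14, 6.24 and 6.23 log2 CPM in β-catSO at E12.5, against 5.24, 4.97 and 5.36 in CD1 wild-type, and 6.29, 6.52 and 6.63 at E13.5, against 5.20, 5.44 and 5.15. Its log2 fold change over the mean of stages was 1.11 ± 0.08 in β-catSO (adjusted p = 4.86e-10), which did not overlap wild-type at either stage, and 0.04 ± 0.08 in β-catSD (0.822). Plaa, the phospholipase A2 activating protein, rose by 0.22 ± 0.05 in β-catSO (0.00522), a call that ended with the 3 libraries left out (0.13; 0.169).

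Of 7 measured genes, the prostanoid receptors and Ptgfrn, only Ptgir and Ptgfrn were called in β-catSD, against 7.17% of all genes. In β-catSO these were called beside Ptgfr and Ptger4, against 18.5% of all genes. Ptgir encodes the prostacyclin receptor, and it fell in β-catSO together with Ptgis. It had 0.07, -0.22 and 1.22 log2 CPM in β-catSO at E12.5, against 2.00, 2.00 and 2.02 in CD1 wild-type. At E13.5 it had 0.43, 0.57 and 0.39 log2 CPM in β-catSO, against 1.81, 2.17 and 1.48 in wild-type. The log2 fold change over the mean of stages was -1.50 ± 0.24 (adjusted p = 6.87e-05), from 5 to 31 reads in the mutant libraries. In β-catSD it rose by 0.92 ± 0.24 (0.0194), a call that ended without β-catSD E12.5 replicate 3 or C57BL/6 E13.5 replicate 2 or 3 (0.0502 to 0.0603). Ptgfrn, which encodes a membrane protein known as an inhibitor of the prostaglandin F receptor, was higher in both mutants, by 0.45 ± 0.11 in β-catSD (0.0106) and 0.64 ± 0.11 in β-catSO (0.000111).

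Of 6 measured transporters, Slco2a1 and Slco3a1 rose and Slco2b1 fell in β-catSD, and Slco3a1 and Slco4a1 fell in β-catSO. The shares called were 50% and 33.3%, against 7.17% and 18.5% of all genes. Slco3a1, an organic anion transporter that carries prostaglandins, had 6.68, 6.53 and 6.77 log2 CPM in β-catSD at E13.5, against 5.93, 6.07 and 5.94 in C57BL/6 wild-type. In β-catSO at E13.5 it had 4.61, 3.70 and 4.04 log2 CPM, against 6.03, 6.09 and 6.05 in CD1 wild-type. Over the mean of stages its log2 fold change was 0.85 ± 0.14 in β-catSD (adjusted p = 0.000291) and -1.42 ± 0.14 in β-catSO (5.34e-08). Slco2b1, another transporter of the family, fell by 1.50 ± 0.37 in β-catSD (log2 change -1.50; 0.0126), and the call ended with voom weights (0.245) and in a fit to the 12 libraries of the line (0.0539). The fall of Slco4a1 in β-catSO (-2.10 ± 0.61; 0.0177) rested on few reads, with 1 read in the 3 β-catSO libraries at E12.5 and 15 in CD1 wild-type. That is a ratio of reads per library size of 0.102, with an exact 95% counting interval of 0.00243 to 0.665. Its call ended with the 3 libraries left out (0.216), with voom weights (0.0538), in the 12 libraries of the line (0.0958), and without β-catSO E13.5 replicate 1 or CD1 E12.5 replicate 1 (0.0522 and 0.0513).

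Of 10 measured terminal synthases, Ptgis was the 1 called in β-catSO (10%, against 18.5% of all genes). Hpgds and Tbxas1 were lower in β-catSD (20% called, against 7.17% of all genes). Hpgds, the haematopoietic prostaglandin D synthase, had 0, 12 and 9 reads in β-catSD at E13.5, against 40, 19 and 22 in C57BL/6 wild-type (mean of stages -2.08 ± 0.60; adjusted p = 0.0354). Tbxas1, thromboxane synthase, had 1, 2 and 7 reads, against 18, 11 and 13 (-1.61 ± 0.43; 0.0228). Ltc4s, which makes leukotriene C, had 2 reads in all 6 β-catSD libraries and 35 in all 6 wild-type libraries. That is a ratio of reads per library size of 0.0645, with an exact 95% counting interval of 0.00752 to 0.251. Its log2 fold change from limma over the mean of stages was -2.55 (adjusted p = 0.00553). Without 1 of 6 libraries the Hpgds call ended (0.0569 or more), and without 1 of 4 that of Tbxas1 (0.0611 to 0.0770). Both also ended with voom weights (0.192 for Hpgds and 0.167 for Tbxas1), in the 12 libraries of the line (0.126 and 0.0945) and with the 3 libraries left out (0.107 and 0.0600). The Hpgds call ended without the variance trend as well (0.0774), and that of Ltc4s ended in the 12 libraries of the line (0.0659). These 3 genes are known from blood cells, and the falls of macrophage and platelet markers given above moved with them; their part in the result was not tested.

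Of 5 measured genes of prostaglandin breakdown, Ptgr1 was called in β-catSO (20%, against 18.5% of all genes). None was called in β-catSD, against 7.17% of all genes. Ptgr1, a prostaglandin reductase that acts after Hpgd, fell by 0.46 ± 0.10 in β-catSO (log2 change -0.46; adjusted p = 0.00142), with no overlap at either stage. Among 10 measured genes of leukotrienes and other eicosanoids, Ggt5 was called in β-catSO (10%, against 18.5% of all genes). Ggt5 encodes a gamma-glutamyltransferase that acts on leukotriene C. It had 1.99, 2.03 and 1.79 log2 CPM in β-catSO at E13.5, against 2.73, 3.57 and 3.65 in CD1 wild-type, and its log2 fold change over the mean of stages was -1.14 ± 0.20 (0.000199).

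**Figure D4:**
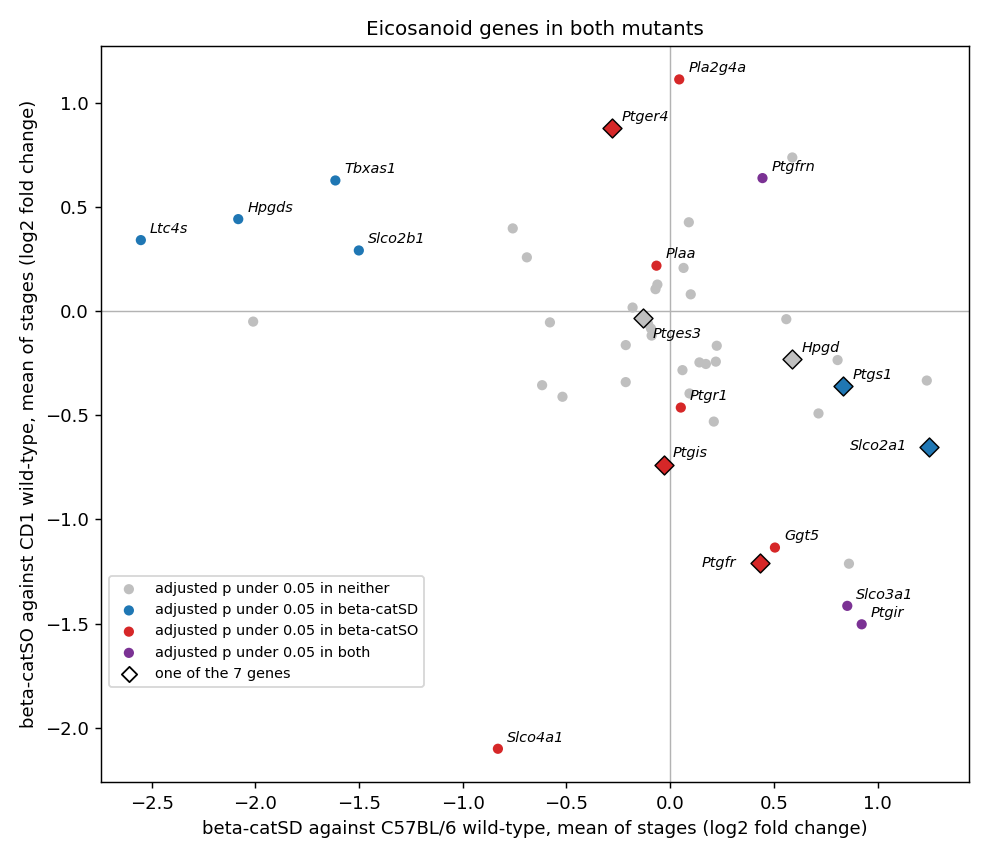
Log2 fold change over the mean of stages of the 7 genes (diamonds) and 42 further eicosanoid genes (circles), in β-catSD against C57BL/6 wild-type (horizontal axis) and in β-catSO against CD1 wild-type (vertical axis), coloured by where limma's adjusted p was under 0.05. Slco3a1 and Ptgir lie at 0.85 and 0.92 on the horizontal and -1.42 and -1.50 on the vertical axis, and Pla2g4a at 0.04 and 1.11.

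Exons of Ptgfr, Ptgs1, Ptgis, Ptger4 and Slco2a1 overlap genes annotated on the other strand in GENCODE M21 (Gm43618, Gm43621, 1110018N20Rik, Ttc33 with Gm15937, and n-R5s89). No source names the strand used in counting, so how reads in the overlapping stretches were counted is not known. The lengths of these overlaps were not measured. Ptges3 has a near-identical pseudogene, Ptges3-ps, with at least 95% identity over at least 200 bases, so its level is uncertain where reads match both.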

How the data were processed

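Total RNA of sorted stromal cells was sequenced on an Illumina HiSeq. The submitters' processing notes name HISAT2, HTSeq, limma and mm10, without versions. They do not say how low genes were removed or whether counting used strand. Values deposited by the authors are in log2 CPM with 0.5 added to each count and TMM-scaled library sizes, as worked out from the values, 100% of which came out as whole reads within 0.1. They were fitted in limma 3.58.1 (R 4.3.3) with 8 group means over 24 libraries, moderated with a mean-variance trend (16 residual and 6.43 prior degrees of freedom). Genes needed 3 libraries above a log2 CPM of 0, which removed 0 genes. Tests were 2-sided, and the code was tested on simulated data. Alternatives were a pseudocount of 1 read, a filter at 1, no filter, voom weights, no trend, median-of-ratios scaling, the 12 libraries of a line, a replicate block and leaving out each library. Leaving out 3 libraries was chosen after seeing the data. The genes and lists were chosen with earlier results of these data known. Named pathway genes were those called in either mean of stages, at most 4 a list by p, and the 3 most like each gene by Pearson r. Positions are GENCODE M21 on GRCm38 (99.1% of symbols matched), and near-identical copies were searched with BLAST 2.17.0. Figures were drawn with matplotlib 3.10.9. Read counts are not independent molecules, so intervals on them cover counting error only.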

Additional observations from a re-analysis of the deposited data

Results flagged for a closer look

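The effect of β-catSO on Ptgfr, the prostaglandin F receptor gene, differed between stages by a test of the difference itself: the log2 fold change at E13.5 minus that at E12.5 was -2.43 ± 0.51 (limma, adjusted p = 0.0195). The call ended with voom weights (0.122), without the variance trend (0.0563) and without any 1 of 5 libraries (0.0524 to 0.0711). The 3 β-catSO libraries had 2.55, 3.14 and 2.88 log2 CPM at E13.5, against 4.58, 5.29 and 5.97 in CD1 wild-type, while at E12.5 the groups overlapped. Mean wild-type levels were higher at E13.5 than at E12.5 in both strains, but neither change was called (limma, adjusted p = 0.0870 in C57BL/6 and 0.0564 in CD1). The β-catSO mean was 2.85 log2 CPM at E13.5 and 4.10 at E12.5, a change that was not tested. Of 8 smooth muscle markers, 4 had an effect called higher at E13.5 than at E12.5, opposite in sign to that of Ptgfr. In the same comparison 1 of 12 stroma markers was higher and 1 lower, and 1 of 12 nephron progenitor markers was lower. Of all genes 1.33% were called there. The part of these cells was not tested.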

How the results depend on the processing

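Of the 7 genes, 1 (Slco2a1) was called in β-catSD at E12.5, in place of 0, in the 12 libraries of the line, with the replicate block and with the 3 libraries left out. In β-catSD at E13.5, 0 were called with voom weights or without the variance trend. In β-catSO at E12.5, 0 were called with voom weights or in the 12 libraries, and 2 (Ptgis and Ptger4) without the trend. Between stages of wild-type, 1 (Ptgfr) was called with the block in each strain, with the 3 libraries left out in C57BL/6, and in the 12 libraries in CD1. The stage difference of Ptgfr in β-catSO ended with voom weights (0 called; limma adjusted p = 0.122) and without the trend (0 called; 0.0563). Between strains 0 were called without the trend and with the 3 libraries left out. Leaving out 1 library at a time gave 0 to 2 called in β-catSD at E12.5, 0 to 1 at E13.5 and 2 over the mean of stages. In β-catSO it gave 0 to 2 at E12.5, 3 to 4 at E13.5 and 3 to 4 over the mean. For the stage difference it gave 0 in β-catSD and 0 to 1 in β-catSO, between stages 0 to 1 in C57BL/6 and 0 to 2 in CD1, between the mutants 5 to 6, and between strains 0 to 1. For single genes, 2532 of 2592 values kept their side of the threshold when 1 library was left out, and 921 of 954 under the other alternatives. Most of these values were not called to begin with, and many fits left out a library outside the groups compared. The tally therefore says little about called values. The call of Ptgs1 in β-catSD at E13.5 held in 20 of 24 such fits, and that of Ptges3 between strains in 12. Among values called in either fit, 0 changed sign. The cause of each change was not tested. Deviations of same-numbered libraries from their group means correlated at 0.198, 0.0715 and 0.276 for β-catSD and wild-type at E12.5. The values were -0.143 to 0.0400 for the other pairs of mutant and wild-type, and -0.365 to 0.0552 between wild-type stages. Differently numbered libraries were not correlated in this way, so these values cannot decide whether replicate numbers pair the libraries. With the replicate block 4 genes were called in β-catSO at E13.5, where Slco2a1 was added (0.0389), and with voom weights it was added too (0.0481). The 2 comparisons across lines have no fit in the 12 libraries of a line. Depth limits Ptger4 and Slco2a1, with 24 reads in their lowest library.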
